A study of Mus musculus with 6 samples.

Results

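The 10 genes described here serve the folding of proteins in the endoplasmic reticulum (ER) and the unfolded protein response: the transcription factor Xbp1, the chaperones Hspa5 and Hsp90b1, the co-chaperones Dnajb9 and Sdf2l1, the lectin chaperone Calr, the disulfide isomerases Pdia3, Pdia6 and Creld2, and the stress protein Manf. The genes were chosen with earlier results of these data known. They were read by all probe sets of the array whose only gene symbol is 1 of these 10. This gave 18 of the 22690 probe sets, and 17 of the 18 were bright enough to be tested. Their transcripts were read in the hypothalamic paraventricular nucleus (PVN) of C57Bl/6 mice, a nucleus of neurons that make and secrete peptide hormones such as oxytocin and vasopressin. The groups were set against each other. Tissue was collected 6 h after a single electroconvulsive seizure (ECS) by a shock of 25 mA for 1 s in the first, 2 h after the same seizure in the second, and 2 h after sham handling without a shock in the third, all under isoflurane. Every group holds 2 arrays of laser-cut PVN, each a pool of RNA from 2 to 3 animals, so a pool and not an animal is the unit of replication. The sources used here give no age or sex. No sham tissue was collected at 6 h, so a difference between 6 h and sham also holds the 4 h between collections and the 2 cannot be told apart.

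Proteins destined for secretion or for membranes fold inside the ER, where the Hsp70 chaperone BiP (Hspa5), the Hsp90 chaperone Grp94 (Hsp90b1), lectin chaperones and disulfide isomerases assist them. When unfolded proteins accumulate there, sensors in the ER membrane (the proteins of Ern1, Atf6 and Eif2ak3) start the unfolded protein response, in which Ern1 splices the Xbp1 transcript into its active form and Atf6 and Xbp1 switch on genes of folding and degradation. Neurons that secrete large amounts of peptide hormone carry a well developed ER, and Xbp1 and Hspa5 respond to secretory load in such cells. The values below give the amount of a transcript, and the spliced and unspliced forms of Xbp1 were not separated here.

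Arrays differed in brightness as deposited, with medians of 28.2 and 35.6 at 6 h, 25.2 and 32.6 at 2 h, and 25.6 and 40.8 in sham, and were quantile normalized to a common distribution. Signals below are normalized signals on the linear scale, and a log2 change is a difference of group means of log2(signal + 16) with its standard error (SE) from limma, which fits a linear model of the 3 group means to the 6 arrays. Replicate 1 at 6 h stood apart, with a mean rank correlation of 0.846 with the other arrays, against 0.869 to 0.890 for the other 5, and a ratio of the 3' to the 5' control probe set of Gapdh of 14.1, against 6.43 to 10.5. By the same ratio of b-actin that array did not stand apart, at 0.764 against 0.562 to 0.771. Markers of the dissected nucleus were present in all arrays, with Oxt, the oxytocin gene, at 2853 and 2074 at 6 h, 2221 and 1859 at 2 h, and 1841 and 1786 in sham, and Sim1, a transcription factor that specifies PVN neurons, between 217 and 431. Cpe, the brightest gene of the neuropeptide and granule list, read 3742 and 4445 at 6 h, 3547 and 4026 at 2 h, and 4004 and 4043 in sham. Arnt2, of the PVN identity list, read 116 and 157 at 6 h, 92.3 and 222 at 2 h, and 127 and 212 in sham. Both had overlapping groups.

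At 6 h after the seizure all 10 genes had a mean level above sham, each by the brightest of its probe sets, with a median log2 change of 0.249, against a median of -0.00222 over all 7332 tested genes, 49.7% of which were above sham. Pdia6, Xbp1, Manf and Dnajb9 differed most, by 1.93-fold, 1.69-fold, 1.47-fold and 1.42-fold, while Hsp90b1, Pdia3 and Calr, which are among the most abundant ER chaperones and isomerases, lay 1.03-fold, 1.06-fold and 1.07-fold above sham. Both 6 h arrays were higher than both sham arrays in 6 of the 10 genes, where 15% of all tested genes had that order, and lower in 0 of the 10, against 15.4%. Because the 10 genes were chosen with earlier results of these data known, such shares, here and below, are a description and not a test. No single probe set passed: limma called 0 of the 17 member probe sets at an adjusted p under 0.05, and 0% of all 12662 tested probe sets. An unadjusted p under 0.05 was reached by 4 of the 17 (2 of Xbp1, 1 each of Dnajb9 and Pdia6), all higher at 6 h, and by 1.71% of all tested probe sets in that direction. That count of 4 was 0 without replicate 1 at 6 h, 2 without replicate 2 at 6 h, 0 without sham replicate 1, 1 without sham replicate 2 and 2 with the values as deposited. Of the 10 genes, 7 were above sham with replicate 2 at 6 h left out and 6 with sham replicate 1 left out. The median change was 0.434 without replicate 1 at 6 h and 0.395 without sham replicate 2, against 0.191 and 0.181 when the other array of the pair was left out.

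**Figure D1:**
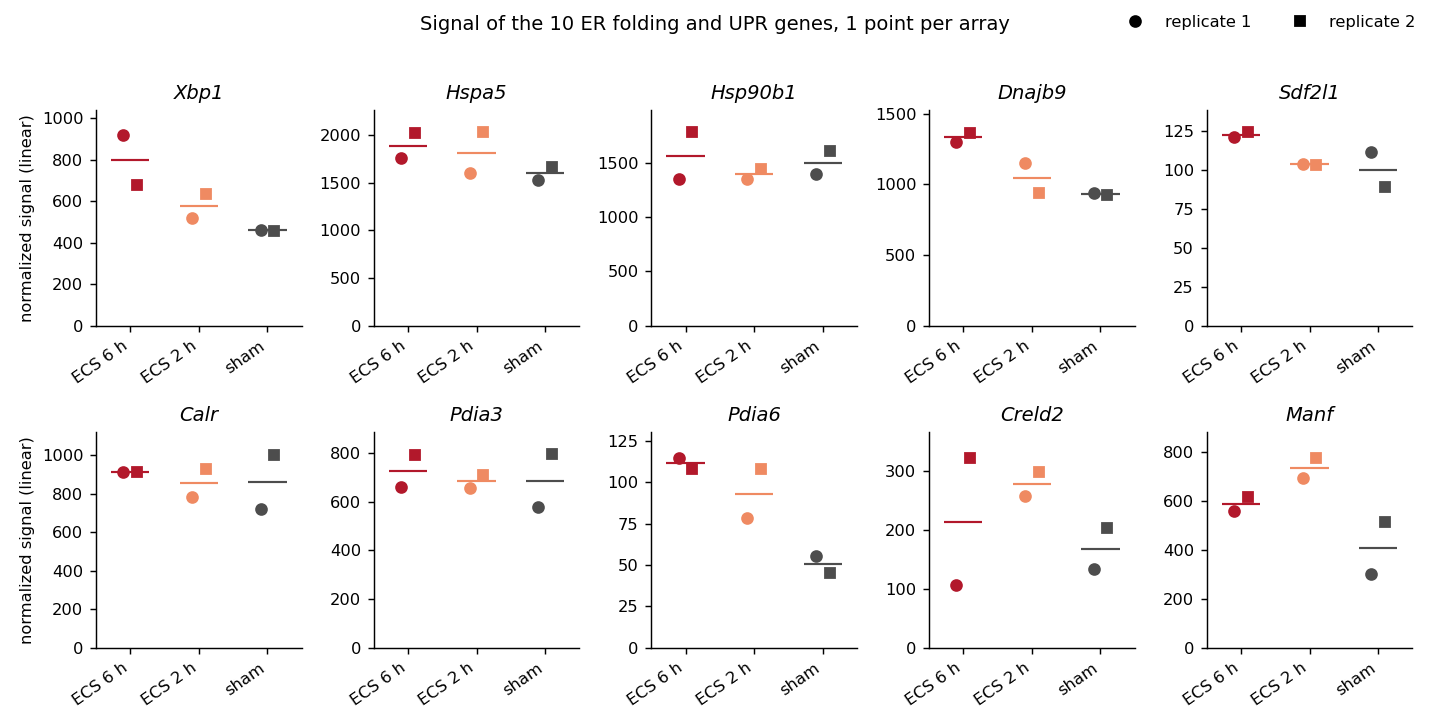
Normalized signal (linear, from 0) of each of the 10 genes by its brightest probe set, in the 2 arrays at 6 h after ECS, at 2 h after ECS and in sham. Circles are replicate 1, squares replicate 2 and lines the mean of the 2 arrays; Xbp1, Dnajb9, Sdf2l1 and Pdia6 have both 6 h arrays above all others, the last by a narrow margin over 2 h replicate 2, and Manf is highest at 2 h.

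Xbp1 encodes the basic leucine zipper factor that switches on genes of ER folding and degradation. Its brightest probe set, 1437223_s_at, read 921 and 676 at 6 h, 519 and 634 at 2 h, and 461 and 458 in sham. The order ran from 6 h through 2 h to sham without overlap between any pair of groups, and the 2 sham arrays were nearly equal. On the log2 scale the means were 9.65 ± 0.310 at 6 h, 9.20 ± 0.200 at 2 h and 8.89 ± 0.00561 in sham (SD, n = 2 each). The log2 change over sham was 0.759 ± 0.270 (SE) at 6 h, with an unadjusted p of 0.0175 and an adjusted p of 1.00 in limma, and 0.310 ± 0.270 at 2 h. Without replicate 1 at 6 h, the array that stood apart, it was 0.540, and without replicate 2 at 6 h it was 0.984.

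The other probe sets of Xbp1 did not all follow. Probe set 1420012_at read 542 and 362 at 6 h, 334 and 303 at 2 h, and 259 and 232 in sham, the same order with no overlap. Probe set 1420011_s_at read 272 and 195 at 6 h, 204 and 140 at 2 h, and 142 and 132 in sham, where only 6 h and sham were apart. Their log2 changes at 6 h over sham were 0.813 ± 0.317 and 0.690 ± 0.356. Probe set 1420886_a_at read 94.6 and 215 at 6 h, 135 and 180 at 2 h, and 88.4 and 167 in sham, and its groups overlapped throughout. In this probe set the replicate 1 array was the lower of the pair in every group, and the 6 h replicate 1 array, which gave the highest reading on the other 3, gave the second lowest. Its log2 change of 0.209 ± 0.450 at 6 h over sham was -0.325 without replicate 2 at 6 h and 0.735 without replicate 1. Which stretch of the transcript each probe set reads was not analysed here.

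**Figure D2:**
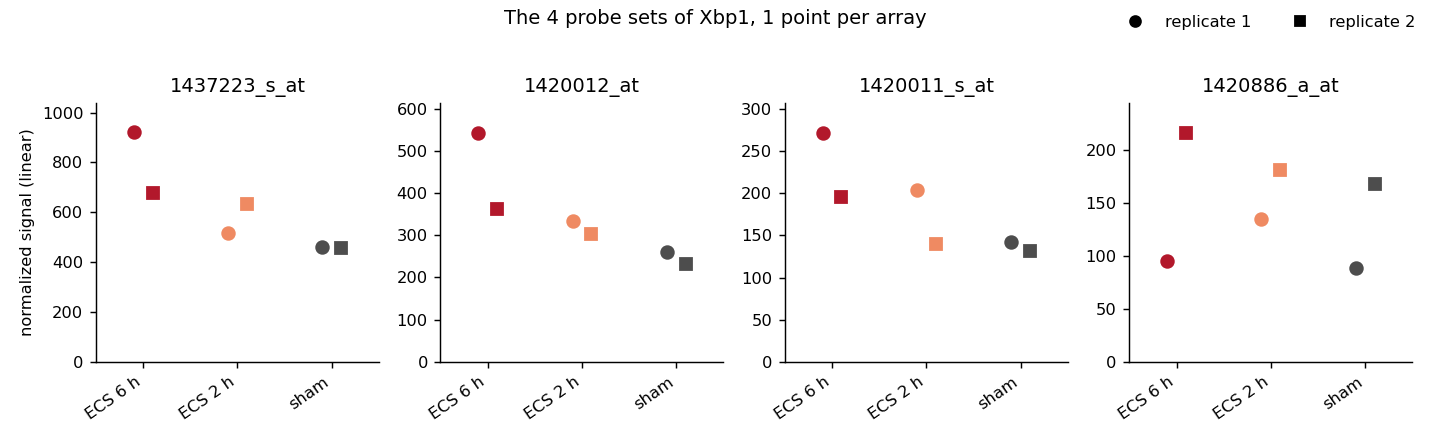
Normalized signal (linear, from 0) of the 4 probe sets of Xbp1 in each of the 6 arrays, circles for replicate 1 and squares for replicate 2. In 3 probe sets the 6 h arrays lie above both sham arrays, whereas in 1420886_a_at the squares lie above the circles in every group and the groups overlap.

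Many genes that Atf6 and Xbp1 act on share a promoter element, the ER stress response element, whose letters are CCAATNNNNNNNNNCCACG, with the CCAAT box bound by NF-Y and the CCACG box by Atf6 or Xbp1. RefSeq promoters (GRCm38.p6, 250 bases before to 50 after the start) were available for 9 of the 10 genes. An exact match on either strand was found in 5 of the 9, against 39 of all 32851 promoter entries (0.119%). The 10 genes were chosen as genes of ER folding and of this response, so that share is a description and not a test. The matches are shown because they are a feature the 5 genes share apart from their signal, each read 5' to 3' along the strand that holds it, with the CCAAT and CCACG boxes in capitals:
Hspa5: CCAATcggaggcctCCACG
Hsp90b1: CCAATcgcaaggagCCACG
Hsp90b1: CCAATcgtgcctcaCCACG
Calr: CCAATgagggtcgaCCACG
Pdia6: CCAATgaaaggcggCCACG
Creld2: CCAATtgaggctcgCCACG
The 9 bases between the boxes differed in each of the 6 matches. Counted from the start of the gene, they begin at -65 in Hspa5, -212 and -107 in Hsp90b1, -162 in Calr, -98 in Pdia6 and -126 in Creld2 (leftmost base on the gene's strand). The second match of Hsp90b1 and those of Calr and Creld2 lie on the opposite strand. The related element ATTGGNCCACG was found in 0 of the 9 promoters (0.0365% of all entries) and the letters TGACGTGG, the core of a second element bound by Xbp1, in 0 of the 9 (0.676%). CCACG alone, which is part of all 3 elements (on the opposite strand in the last), was found in 7 of the 9 and in 32.8% of all entries.

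The promoters of Pdia6, which had the largest log2 change at 6 h, and of Hspa5, the textbook target of the response, are given in full. Capitals mark both boxes of the element and every other CCACG box, on either strand. That of Pdia6 spans chr12:17266339-17266638 on the plus strand and that of Hspa5 chr2:34771840-34772139 on the plus strand:
Pdia6: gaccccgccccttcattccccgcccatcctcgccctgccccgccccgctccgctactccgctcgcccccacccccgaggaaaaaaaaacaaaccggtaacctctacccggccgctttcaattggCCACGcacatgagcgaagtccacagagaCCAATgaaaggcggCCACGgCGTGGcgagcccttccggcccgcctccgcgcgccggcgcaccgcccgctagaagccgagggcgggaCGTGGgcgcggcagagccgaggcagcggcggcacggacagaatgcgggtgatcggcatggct
Hspa5: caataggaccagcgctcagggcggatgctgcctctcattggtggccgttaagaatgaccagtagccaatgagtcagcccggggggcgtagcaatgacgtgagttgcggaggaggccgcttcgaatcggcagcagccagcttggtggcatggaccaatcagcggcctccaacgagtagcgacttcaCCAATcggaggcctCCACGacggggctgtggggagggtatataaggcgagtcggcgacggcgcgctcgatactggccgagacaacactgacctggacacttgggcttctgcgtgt
Pdia6 holds 4 CCACG boxes in this window and Hspa5 holds 1. The match is a description of letters, and the 5 genes with it include both the gene with the largest change at 6 h (Pdia6) and the one with the smallest (Hsp90b1).

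Hspa5 encodes BiP, the Hsp70 of the ER and the sensor-binding chaperone of the response. Its brighter probe set, 1416064_a_at, read 1759 and 2021 at 6 h, 1601 and 2033 at 2 h, and 1535 and 1662 in sham. Both 6 h readings exceeded both sham readings, with a narrow gap, while the 2 h arrays overlapped with both. The log2 change was 0.237 ± 0.186 at 6 h over sham and 0.174 ± 0.186 at 2 h over sham. The second probe set, 1427464_s_at, read 1071 and 1150 at 6 h, 1078 and 1103 at 2 h, and 1032 and 1014 in sham. All 4 seizure readings exceeded both sham readings here, by a log2 change of 0.116 ± 0.201 at 6 h, less than its SE.

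Hsp90b1 encodes Grp94, the ER member of the Hsp90 family. It read 1349 and 1786 at 6 h, 1353 and 1448 at 2 h, and 1399 and 1608 in sham on probe set 1415889_a_at, and the groups overlapped in every pair. The log2 change was 0.0491 ± 0.201 at 6 h and -0.0985 ± 0.201 at 2 h over sham. Its second probe set gave 0.0698 ± 0.207 and -0.0880 ± 0.207, so both probe sets of this gene put the 3 groups close together.

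Dnajb9 encodes ERdj4, a J-domain co-chaperone of BiP and a target of Xbp1. It read 1303 and 1366 at 6 h, 1149 and 941 at 2 h, and 937 and 927 in sham. Both 6 h arrays stood above all others, by a gap of 0.178 on the log2 scale over the higher 2 h array. The lower 2 h array sat level with sham. The means were 10.4 ± 0.0477 at 6 h, 10.04 ± 0.201 at 2 h and 9.89 ± 0.0109 in sham on the log2 scale (SD, n = 2 each). The log2 change was 0.509 ± 0.208 at 6 h over sham, with an unadjusted p of 0.0330 and an adjusted p of 1.00 in limma, and 0.155 ± 0.208 at 2 h over sham. Leaving out 1 array at a time gave 0.475 to 0.538 at 6 h, the narrowest range among the 4 genes that differed most, and with 2 h replicate 1 left out the 2 h change was 0.0123.

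Sdf2l1 encodes a luminal partner of the ER J-domain co-chaperones. It read 121 and 124 at 6 h, 104 and 103 at 2 h, and 111 and 88.9 in sham. The 2 arrays of each seizure group were close to each other and the 6 h pair was highest, while the sham pair spanned the 2 h values. The log2 change was 0.260 ± 0.348 at 6 h and 0.0478 ± 0.348 at 2 h over sham.

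Calr encodes calreticulin, which holds newly made glycoproteins and buffers ER calcium. On its brightest probe set, 1433806_x_at, it read 914 and 914 at 6 h, 786 and 929 at 2 h, and 719 and 1004 in sham. The sham arrays were the lowest and the highest of all 6, so no group was apart. The log2 changes at 6 h over sham were 0.104 ± 0.244, -0.117 ± 0.290 and 0.120 ± 0.351 on its 3 probe sets, and those at 2 h were 0.00850 ± 0.244, -0.154 ± 0.290 and -0.00626 ± 0.351. On all 3 the lower sham array was replicate 1.

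Among the disulfide isomerases, which make and rearrange the bonds between cysteines, Pdia6 (P5) differed most. Probe set 1423648_at read 115 and 108 at 6 h, 78.2 and 108 at 2 h, and 55.5 and 45.2 in sham. Every seizure reading exceeded both sham readings, and the 6 h arrays were level with the higher of the 2 h arrays. The means were 6.99 ± 0.0533 at 6 h, 6.76 ± 0.279 at 2 h and 6.05 ± 0.160 in sham on the log2 scale (SD, n = 2 each). The log2 change was 0.946 ± 0.367 at 6 h over sham, with an unadjusted p of 0.0264 and an adjusted p of 1.00 in limma, and 0.708 ± 0.367 at 2 h. These signals are low enough for the offset of 16 to shrink the change, which was 1.14 at 6 h with an offset of 1 and 0.619 with an offset of 64. The second probe set of Pdia6, 1430983_at, was the 1 of the 18 that did not pass the filter, with signals of 29.7 and 13.3 at 6 h, 7.75 and 13.3 at 2 h, and 5.15 and 4.58 in sham.

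Pdia3 (ERp57), the isomerase that works with calreticulin on glycoproteins, read 659 and 793 at 6 h, 657 and 711 at 2 h, and 579 and 794 in sham. The sham arrays again spanned all the others, and the log2 changes over sham were 0.0893 ± 0.260 at 6 h and 0.0111 ± 0.260 at 2 h. Creld2, a secreted and luminal protein with isomerase activity, read 107 and 322 at 6 h, 257 and 299 at 2 h, and 133 and 203 in sham. Both 2 h readings exceeded both sham readings, whereas the 6 h pair held both the highest and the lowest reading. The log2 change was 0.698 ± 0.466 at 2 h and 0.173 ± 0.466 at 6 h over sham. The 6 h value was 0.890 without replicate 1, the array that stood apart, -0.561 without replicate 2 and -0.103 without sham replicate 1, so its direction at 6 h turned on single arrays.

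Manf encodes a small ER protein that is secreted under ER stress and protects neurons. It read 558 and 614 at 6 h, 692 and 776 at 2 h, and 300 and 514 in sham. The 2 h arrays were the highest, the 6 h arrays came next and the sham arrays were lowest, with no overlap between any pair of groups. The means were 9.23 ± 0.0952 at 6 h, 9.55 ± 0.114 at 2 h and 8.68 ± 0.528 in sham on the log2 scale (SD, n = 2 each). The log2 change over sham was 0.873 ± 0.302 at 2 h, with an unadjusted p of 0.0152 and an adjusted p of 1.00 in limma, and 0.556 ± 0.302 at 6 h. The size turned on which sham array was used, at 0.494 at 2 h and 0.180 at 6 h without sham replicate 1, and 1.25 and 0.938 without sham replicate 2.

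**Figure D3:**
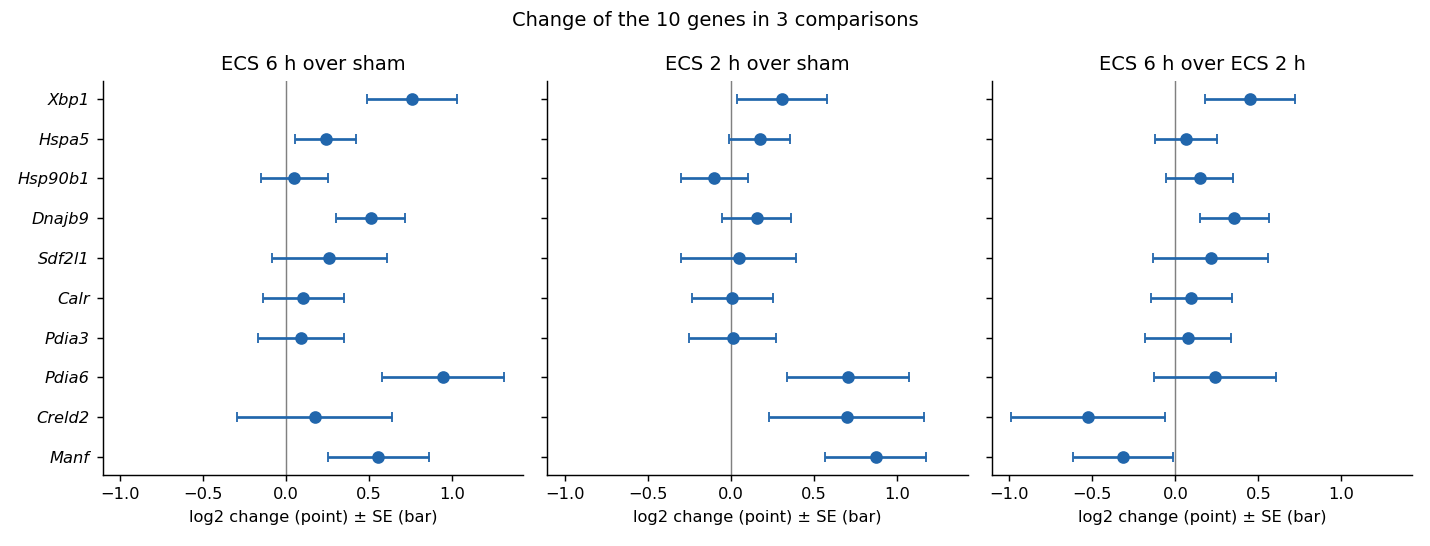
Log2 change of each of the 10 genes (brightest probe set) at 6 h over sham, 2 h over sham and 6 h over 2 h; points are limma estimates from 2 arrays a group and bars are ± 1 SE. At 6 h Pdia6, Xbp1, Manf and Dnajb9 lie farthest above 0, at 2 h Manf, Pdia6 and Creld2 do, and between the times Xbp1 and Dnajb9 lie above 0 and Creld2 and Manf below.

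At 2 h after the seizure the largest differences from sham among the 10 genes were those of Manf, Pdia6 and Creld2. They were 1.83-fold, 1.63-fold and 1.62-fold above sham, Xbp1 was 1.24-fold and Hspa5 1.13-fold above, and the other 5 genes lay between 0.934-fold and 1.11-fold. The mean was above sham in 9 of the 10 genes, all but Hsp90b1, and in 51.5% of all tested genes, with a median log2 change of 0.165 against 0.0127 over all tested genes. Without 2 h replicate 2 the median was 0.109 and 7 of the 10 were above sham, as many as without sham replicate 1. In 5 of the 10 genes both 2 h arrays were higher than both sham arrays, against 16.8% of all tested genes, and in 0 both were lower, against 16.4%. Limma called 0 of the 17 probe sets and 0% of all 12662. The probe set of Manf was the 1 of the 17 with an unadjusted p under 0.05, reached by 1.72% of all tested probe sets in that direction, and it missed it without 2 h replicate 2, without sham replicate 1 and with the values as deposited. The 2 comparisons with sham share the sham arrays, so their values for a gene are not independent.

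The seizure groups were also set against each other. Without a sham group at 6 h, the difference also holds whatever changed over the 4 h between collections, and the 2 cannot be told apart. Dnajb9 and Xbp1 were 1.28-fold and 1.37-fold higher at 6 h, by log2 changes of 0.354 ± 0.208 and 0.449 ± 0.270, with both 6 h arrays above both 2 h arrays. Sdf2l1 and Pdia6 had the same order, at 0.212 ± 0.348 and 0.237 ± 0.367, Pdia6 by a gap of 0.00223 on the log2 scale. Manf had the opposite order, at -0.317 ± 0.302, and Creld2 stood at -0.525 ± 0.466, or 0.201 without replicate 1 at 6 h. The median of the 10 genes was 0.121, against -0.00755 over all tested genes, and 8 of the 10 were above 0, against 49.1% of all. Leaving out 1 array of either group gave medians of 0.0308 (6 h replicate 2), 0.0309 (2 h replicate 1), 0.203 (6 h replicate 1) and 0.212 (2 h replicate 2), and 5, 6, 9 and 8 genes above 0. No overlap with 6 h higher was found in 4 of the 10 genes, against 14.3% of all tested genes, and with 6 h lower in 1, against 15.8%. Limma called 0 of the 17 probe sets and 0% of all 12662, and 0 of the 17 had an unadjusted p under 0.05, reached by 1.62% of all with 6 h higher, and 1 had it without replicate 2 at 6 h. A difference in timing between Manf and Xbp1 was therefore not past the test for either gene.

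With both times joined, all 4 seizure arrays exceeded both sham arrays in 4 of the 10 genes, namely Xbp1, Dnajb9, Pdia6 and Manf, an order held by 6.29% of all tested genes. The opposite order was found in 0 of the 10 and in 6.75% of all. Per the design text the experiment was run again with other animals, and each replicate number also gives a difference of its own. The labels do not say that a number marks a run, and it was only read so here. At 6 h over sham, 6 of the 10 genes were higher within both numbers and 0 lower within both, against 25.3% and 26.2% of all tested genes. Pdia6 differed by 0.870 and 1.02 on the log2 scale within replicates 1 and 2, Xbp1 by 0.974 and 0.544, Dnajb9 by 0.468 and 0.551, and Manf by 0.862 and 0.250. The other 2 that were higher within both were Hspa5 and Sdf2l1. Creld2, Calr, Hsp90b1 and Pdia3 differed in direction between the numbers, the last by -0.00178 within replicate 2. At 2 h over sham, 6 of the 10 were higher within both numbers and 1, Hsp90b1, was lower within both, against 28% and 26.6% of all tested genes. At 6 h over 2 h, Xbp1, Dnajb9, Sdf2l1, Pdia6 and Pdia3 were higher within both numbers and Manf was lower within both, against 24.6% and 26.1% of all.

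**Figure D4:**
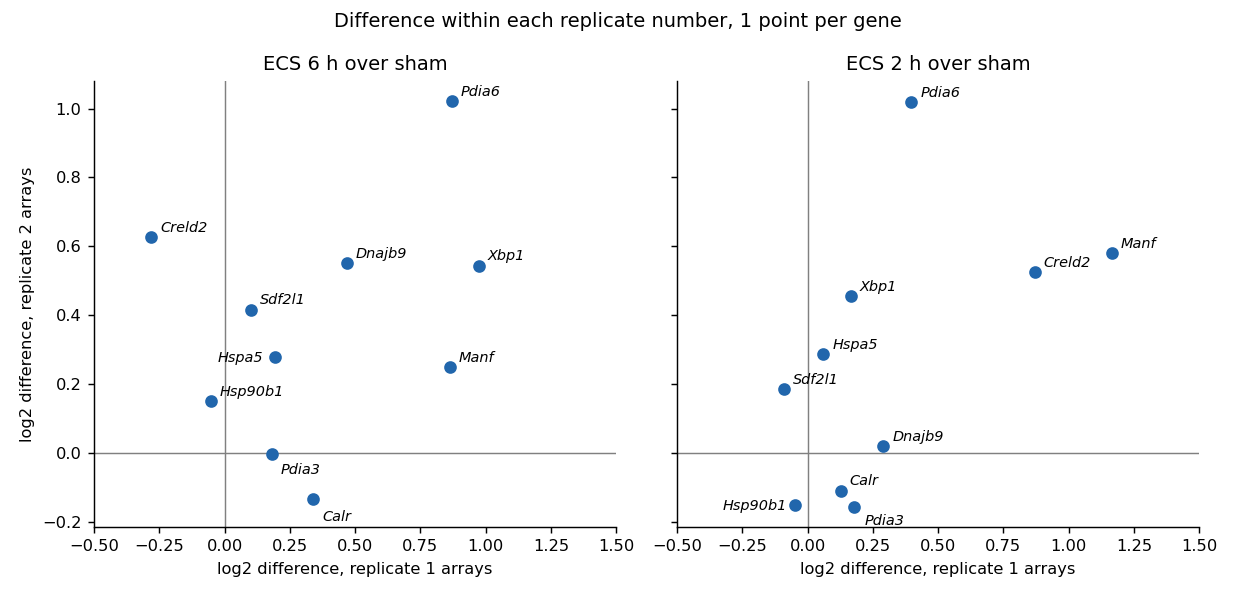
Log2 difference from sham within replicate 1 arrays (horizontal) and within replicate 2 arrays (vertical) for the 10 genes, at 6 h and at 2 h. Genes to the upper right are higher than sham within both numbers, 6 of 10 at each time; Pdia6 lies high on both axes at 6 h.

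The wider machinery around these genes was described through 10 lists of other genes, each gene by its brightest tested probe set, with 0 genes called in either direction in any list at any time. At 6 h the lists of N-glycosylation and the lectin cycle, of calcium-binding luminal proteins and of translocation and signal peptidase had the highest medians, each below that of the 10 genes. For N-glycosylation, in which an oligosaccharide is put on the growing chain, 13 of 17 genes were above sham with a median log2 change of 0.147. Dad1 and Rpn1, subunits of the oligosaccharyltransferase and the brightest of that list, stood at 0.511 ± 0.285 and 0.276 ± 0.194. For translocation, 15 of 20 were above sham with a median of 0.119, with Sec11c, a subunit of signal peptidase, at 0.292 ± 0.167 and Srp14, of the signal recognition particle, at 0.0275 ± 0.118. For the calcium-binding and related luminal proteins 7 of 8 were above sham, with a median of 0.129, Sdf2 at 0.187 ± 0.219 and the reticulocalbin Rcn2 at 0.143 ± 0.229.

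Lists of chaperone partners, isomerases and degradation had lower medians at 6 h. The other members of the ER Hsp70 system had 4 of 7 above sham and a median of 0.114, with the BiP co-chaperone Dnajb11 at 0.244 ± 0.334 and Hyou1, a nucleotide exchange factor of BiP, at 0.114 ± 0.500. The other disulfide isomerases and oxidases had 7 of 13 above sham and a median of 0.0519, with Tmx1 at -0.0300 ± 0.180 and Tmx2 at 0.208 ± 0.252. ER-associated degradation, which removes misfolded proteins, had 8 of 15 above sham and a median of 0.0513, with the channel component Derl1 at -0.112 ± 0.217 and the ATPase Vcp at -0.161 ± 0.252. The prolyl isomerases had 1 of 4 above sham and a median of -0.240, with Fkbp2 at -0.204 ± 0.224 and Ppib at 0.171 ± 0.307.

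Sensors and activators of the response had 5 of 6 genes above sham at 6 h with a median of 0.0964, and in 2 of the 6, Ern1 and Atf6b, both 6 h arrays exceeded both sham arrays. That order was held by 15% of all tested genes. In other lists it was held by 5 of 20 for translocation, 4 of 17 for N-glycosylation, 1 of 15 for degradation and 0 of 4 for prolyl isomerases. The brightest of the list, the membrane-bound factors Creb3 and Creb3l2, stood at 0.0537 ± 0.202 and 0.0346 ± 0.361. The 3 tested sensors were dim and are named after their values were seen. Ern1, the sensor that splices Xbp1, read 45.5 and 52.0 at 6 h, 17.4 and 88.1 at 2 h, and 21.1 and 29.0 in sham, log2 changes of 0.663 ± 0.542 at 6 h and 0.528 ± 0.542 at 2 h over sham. Its 2 h arrays were the lowest and the highest of all 6. Atf6b, a relative of Atf6, read 48.6 and 58.7 at 6 h, 55.7 and 77.9 at 2 h, and 36.3 and 44.6 in sham, log2 changes of 0.304 ± 0.392 and 0.543 ± 0.392, and both seizure groups were apart from sham. Eif2ak3, which encodes PERK, stood at -0.0195 ± 0.434 at 6 h and -0.0899 ± 0.434 at 2 h. The genes of the PERK branch, which slows translation and acts through Atf4, had 7 of 10 above sham with a median of 0.104, Atf4 itself at 0.000738 ± 0.204 and the serine synthesis enzyme Psat1 at 0.216 ± 0.312. Cytosolic and mitochondrial chaperones, which answer to heat shock factors, had 6 of 11 above sham and a median of 0.00621, with Hspa8 at 0.0686 ± 0.111 and Hsph1 at 0.133 ± 0.164. At 2 h the list medians ran from -0.113 for the ER Hsp70 system to 0.183 for translocation, in which 16 of 20 genes were above sham. That median was higher than the 0.165 of the 10 genes. The PERK branch had a median of 0.00495 at 2 h with 5 of 10 above sham and single genes from -1.16 to 1.34, against -0.284 to 0.429 at 6 h. Both extremes at 2 h were those of dim genes, with signals from 8.8 to 94 over the 6 arrays.

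**Figure D5:**
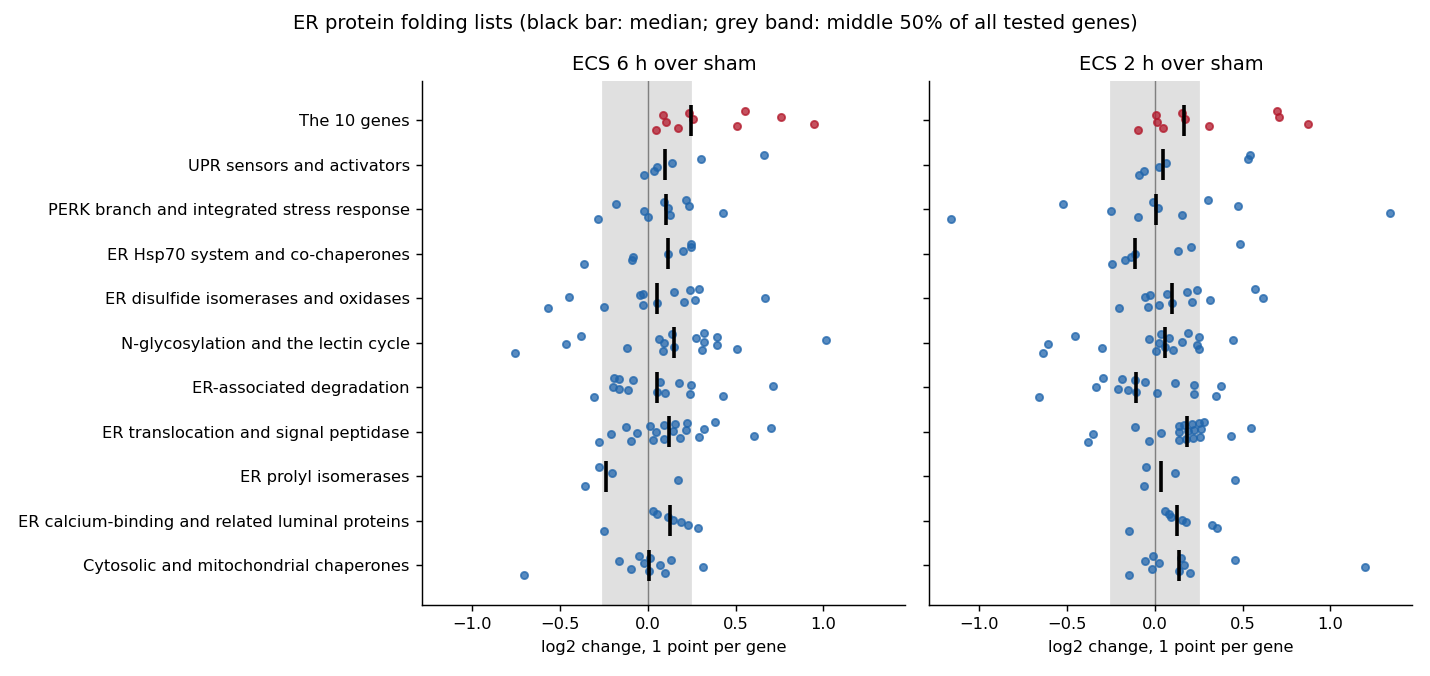
Log2 change over sham of every tested gene in the 10 genes (red) and in 10 lists of related genes (blue), at 6 h and at 2 h; black bars are list medians and the grey band holds the middle 50% of all tested genes. The median of the 10 genes is 0.249 at 6 h and 0.165 at 2 h, at 6 h no list median lies above it, and at 2 h that of translocation and signal peptidase does, at 0.183.

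The genes whose pattern over the 6 arrays was nearest to that of Xbp1 were found by the root mean square difference of log2 values, each gene centred on its own mean. Nearness was ranked over the 7331 tested genes other than Xbp1. Outside the 10 genes the nearest were Tfb1m, a methyltransferase of mitochondrial ribosomal RNA, Spcs3, a signal peptidase subunit, and Wfs1, the ER membrane protein wolframin. Next came Mvd, an enzyme of sterol synthesis, and Cep70, a centrosome protein. These 5 stood at 0.0785, 0.0829, 0.0841, 0.0870 and 0.0899. Wfs1 read 864 and 542 at 6 h, 449 and 607 at 2 h, and 390 and 399 in sham. Spcs3 read 517 and 428 at 6 h, 320 and 394 at 2 h, and 312 and 296 in sham. Both had replicate 1 at 6 h as their highest array, as Xbp1 did, and that array is the one that stood apart. Among the 10 genes Pdia6 and Dnajb9 were nearest to Xbp1, at 0.206 and 0.242, and Creld2 was farthest, at 0.697. Pdia6 ranked 128, Dnajb9 254 and Creld2 6316 of the 7331, and the other members ranked from 456 (Sdf2l1) to 2755 (Manf). Many genes outside the 10 therefore lay nearer to Xbp1 than Pdia6 did. With 6 arrays the measure describes these arrays only.

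Other contents of the pools also differed between the groups, some higher and some lower after the seizure. The summed signal of 15 PVN neuropeptide and secretory granule genes was 15839 and 16318 at 6 h, 14963 and 15281 at 2 h, and 13087 and 14314 in sham, so every seizure array was higher than both sham arrays. Their median log2 change was 0.333 at 6 h and 0.247 at 2 h over sham, against 0.249 and 0.165 for the 10 genes. Without sham replicate 1 it was 0.114 and 0.00511, against 0.181 and 0.176 for the 10 genes. The summed signal of the 7 cortex and hippocampus neuron markers on the array, of 9 listed, was 439 and 1175 at 6 h, 277 and 261 at 2 h, and 2243 and 1866 in sham, lower in every seizure array. The summed signal of 14 general neuron markers was 16002 and 18448 at 6 h, 14879 and 15846 at 2 h, and 19747 and 19270 in sham, and that of 9 oligodendrocyte markers, of 11 listed, was 2690 and 2875 at 6 h, 3266 and 3231 at 2 h, and 3957 and 3585 in sham. Astrocyte markers (9) summed to 4160 to 4870 over the 6 arrays, microglia markers (10) to 1394 to 1811 and endothelial and mural markers (10) to 1023 to 1461, with overlapping groups. The 3 ependymal and tanycyte markers on the array, of 6, summed to 127 and 63.7 at 6 h, 129 and 75.7 at 2 h, and 66.9 and 57.3 in sham, where both 2 h sums exceeded both sham sums. The sums of 5 PVN identity factors, of 6, were 468 and 519 at 6 h, 561 and 531 at 2 h, and 554 and 473 in sham, where both 6 h sums were below both 2 h sums and the sham sums overlapped with both. Choroid plexus markers were near the floor, with sums of 23.9 to 45.2 over the 4 on the array, of 6 listed. The part of these differences in the values of the 10 genes was not tested, and in pooled tissue fewer cells of a type and less RNA per cell cannot be told apart.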

How the data were processed

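RNA from laser-cut PVN was pooled, amplified and hybridised to an Affymetrix mouse array, per the labels' protocols. Per the submitters' processing notes the authors used MAS5, and the deposited intensity values carry no version, target or detection call in the sources used here. Array medians ran from 25.2 to 40.8, so the values were quantile normalized after 64 control probe sets were left out, 16 was added and log2 taken. Precision is limited by the number of arrays, and p-values measure the spread between pools.

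Probe sets that reached the median of the array in 2 or more of the 6 arrays, 12662 of 22626 (56.0%), were tested together in limma 3.58.1 (R 4.3.3) with a mean per group, an intensity trend in the variance (7.64 prior and 3 residual degrees of freedom), and p-values were adjusted by Benjamini and Hochberg over all tested probe sets at 0.05, two-sided. A gene is represented by its tested probe set of highest mean signal, which gave 7332 genes. Symbols come from the array annotation, where 20380 probe sets carry 1 symbol, 691 several and 1555 none, matched by Entrez identifier to RefSeq for 20351. The limma fit alone was tested on simulated normal values with added changes, without the normalization, offset and filter used here. Named genes are the 10 members, the 2 brightest genes of each pathway and tissue list and the 5 nearest to Xbp1. Ern1, Atf6b and Eif2ak3 were named in addition, after their values were seen. Members, lists and tests were chosen with earlier results of these data known, and no p-value is given for a list.

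Deviations of same-numbered arrays from their group means correlated across probe sets by 0.228 (2 h and sham), 0.185 (6 h and sham) and 0.151 (6 h and 2 h), and the design text speaks of a second run with other animals, so the numbers were read as runs. The labels do not say that a number marks a run. In every group the replicate 1 array also had the lower median as deposited, and the source of the correlation was not tested. An alternative fit took the run as a replicate block. Other alternatives were the offset, scaling, filter, variance trend, array weights, the 4 arrays of a comparison alone, the probe set that stands for a gene and each array left out. Promoter sequences are from RefSeq (GRCm38.p6) and were searched for exact letters on both strands.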

Additional observations from a re-analysis of the deposited data

How the results depend on the processing

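Under 17 alternative settings limma called 0 member probe sets in each of the 3 comparisons, and the smallest adjusted p of any member was 0.370 at 6 h over sham, 0.447 at 2 h over sham and 0.450 at 6 h over 2 h. With the replicate block it also called 0 members, with adjusted p of 0.675 for Xbp1 at 6 h and 0.447 for Manf at 2 h over sham, and 4 of all probe sets at 2 h over sham; the block changed no other call. The count of all called probe sets at 2 h over sham was 1 with the values as deposited, 1 with median subtraction, 2 with array weights and 7 with the 4 arrays alone, and 0 to 10 with 1 array left out, where it was 0 to 6 at 6 h over sham and 0 to 3 at 6 h over 2 h. The median of the 10 genes at 6 h over sham was 0.384 with the values as deposited and 0.410 with median subtraction, where all genes had medians of 0.0848 and 0.110, and 0.181 to 0.434 with 1 array left out. At 6 h over 2 h it was 0.334 and 0.241, with all genes at 0.164 and 0.0699. With those 2 scalings 10 of the 10 genes were above sham at 6 h, while at 2 h 6 and 10 were.

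Of 864 member values under the alternatives 44 turned direction, all of them at log2 changes below their SE except that of Creld2 at 6 h over 2 h; the cause was not tested. With the values as deposited these were Calr (1433806_x_at) at -0.0697, Pdia3 at -0.0661 and Sdf2l1 at -0.0494 at 2 h over sham, Calr (1456170_x_at) at 0.0315 at 6 h over sham and Xbp1 (1420886_a_at) at 0.0384 at 6 h over 2 h. With median subtraction they were Calr (1417606_a_at) at 0.0219 and Hsp90b1 (1415889_a_at) at 0.00765 at 2 h, and Calr (1456170_x_at) at 0.0570 at 6 h over sham. With 1 array left out, the values at 6 h over sham ran from -0.169 to 0.406 (1417606_a_at), -0.136 to 0.344 (1433806_x_at) and -0.456 to 0.222 (1456170_x_at) for Calr, -0.561 to 0.890 for Creld2, -0.153 to 0.249 (1415889_a_at) and -0.0306 to 0.169 (1438040_a_at) for Hsp90b1, -0.133 to 0.310 for Pdia3 and -0.325 to 0.735 for Xbp1 (1420886_a_at). At 2 h over sham they ran from -0.296 to 0.279, -0.231 to 0.246 and -0.494 to 0.186 for Calr in the same order, -0.213 to 0.233 for Pdia3, -0.0943 to 0.189 for Sdf2l1 and -0.0926 to 0.722 for Xbp1 (1420886_a_at). At 6 h over 2 h they ran from -0.0858 to 0.338, -0.0234 to 0.213 and -0.126 to 0.198 for Calr, -1.26 to 0.201 for Creld2, -0.0543 to 0.347 for Hsp90b1 (1415889_a_at), -0.108 to 0.233 (1416064_a_at) and -0.0258 to 0.0760 (1427464_s_at) for Hspa5, -0.0518 to 0.204 for Pdia3 and -0.640 to 0.424 for Xbp1 (1420886_a_at). Signals near the offset of 16 limit what can be read from the second Pdia6 probe set.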
